A study of Mus musculus with 18 samples.

Results

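The activity-dependent immediate early genes described here are 10 genes, Fos, Fosb, Junb, Egr1, Egr2, Egr4, Npas4, Nr4a1, Ier2 and Arc, of 22672 genes tested. They were chosen by name, and every probe whose accession is annotated to one of them was taken, which gave 11 probes on the array. Junb had 2 probes and each of the other genes 1, and the Fos and Egr2 probes were each printed as 10 spots. All 10 genes were well above background on all 18 arrays, so none was lost to the filter on dim probes. The arrays are Agilent 1-colour mouse arrays of total RNA, labelled with Cy3 after linear amplification. The RNA came from brainstem, hippocampus and cortex of male 129SV mice, which were Nrf2 knockout (KO) or wild type (WT), without applied stress per the series title, with 3 mice numbered 1 to 3 in each of the 6 groups. The labels give neither age nor the design of the Nrf2 allele, nor how or when the tissue was taken. The p-values below measure the spread between these RNA samples.

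Immediate early genes are transcribed within minutes of a stimulus, without new protein synthesis, through factors that are already bound or waiting in the cell, chiefly CREB at cAMP response elements and serum response factor with its partners at serum response elements. In neurons, calcium entry through synaptic receptors and voltage-gated channels drives them, and their mRNAs decay quickly, so that their level follows recent firing, arousal and handling of an animal. Most encode transcription factors that switch on later genes, and Arc encodes a protein that acts at the synapse itself. Nrf2, encoded by Nfe2l2, is a transcription factor of the antioxidant response and is not a member of this group.

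Levels are given as log2 of the processed signal minus the 75th percentile of the same array, so that 0 is the 75th percentile and levels compare a gene across arrays but not 1 gene with another. The target itself fitted the labels: Nfe2l2 stood at -7.33, -6.49 and -4.92 in KO brainstem, -3.62, -5.84 and -4.47 in KO hippocampus and -8.01, -8.39 and -7.36 in KO cortex, and between 0.79 and 1.39 on the 9 WT arrays. Its probe was still well above background on every KO hippocampus array and on KO brainstem array 3, but not on the other KO arrays. Between 65.3% and 75.1% of the spots of an array were well above background and none was saturated. The tissue lists fitted the labels too: the mean level of 10 brainstem markers was -2.44 to -2.14 on brainstem arrays, against -6.95 to -5.55 in hippocampus and -7.63 to -6.95 in cortex. In bulk tissue, fewer cells of a type and less RNA per cell cannot be told apart. The cortical arrays sat on slides of their own, so slide and region cannot be told apart there, whereas slide 2 held brainstem and hippocampus arrays of both genotypes.

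The 250 bases before the transcription start are shown for the 6 members with a single start in the RefSeq table (build GRCm38.p6). Their positions are Fos chr12:85473640-85473889 on the plus strand, Fosb chr7:19310046-19310295 on the minus strand, Junb chr8:84978749-84978998 on the minus strand, Egr4 chr6:85513590-85513839 on the minus strand, Npas4 chr19:4989972-4990221 on the minus strand, Nr4a1 chr15:101266596-101266845 on the plus strand. Capitals mark the CRE half-site, TGACG on either strand, the short form of the site that CREB binds.
Fos: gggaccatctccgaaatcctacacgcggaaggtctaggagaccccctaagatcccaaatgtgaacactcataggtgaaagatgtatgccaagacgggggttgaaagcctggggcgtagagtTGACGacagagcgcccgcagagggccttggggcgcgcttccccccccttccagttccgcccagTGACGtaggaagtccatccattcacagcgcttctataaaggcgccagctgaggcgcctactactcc
Fosb: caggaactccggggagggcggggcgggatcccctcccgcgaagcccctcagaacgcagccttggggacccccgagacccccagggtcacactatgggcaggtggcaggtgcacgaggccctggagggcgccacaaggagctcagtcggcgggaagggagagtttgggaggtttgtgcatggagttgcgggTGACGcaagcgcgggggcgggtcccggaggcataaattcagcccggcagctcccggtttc
Junb: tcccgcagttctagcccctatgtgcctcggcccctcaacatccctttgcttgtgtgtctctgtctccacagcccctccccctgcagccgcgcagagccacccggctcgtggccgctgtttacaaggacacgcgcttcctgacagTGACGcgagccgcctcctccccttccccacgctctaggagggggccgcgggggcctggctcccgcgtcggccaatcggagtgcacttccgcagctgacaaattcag
Egr4: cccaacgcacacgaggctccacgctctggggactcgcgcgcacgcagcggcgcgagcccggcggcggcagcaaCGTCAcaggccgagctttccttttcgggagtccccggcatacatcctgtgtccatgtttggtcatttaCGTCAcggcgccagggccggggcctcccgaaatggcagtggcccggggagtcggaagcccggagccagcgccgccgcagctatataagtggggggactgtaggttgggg
Npas4: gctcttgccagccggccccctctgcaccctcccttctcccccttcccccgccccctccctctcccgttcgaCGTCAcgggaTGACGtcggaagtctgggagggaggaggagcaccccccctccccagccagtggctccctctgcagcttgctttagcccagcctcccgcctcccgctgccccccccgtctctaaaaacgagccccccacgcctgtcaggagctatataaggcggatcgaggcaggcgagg
Nr4a1: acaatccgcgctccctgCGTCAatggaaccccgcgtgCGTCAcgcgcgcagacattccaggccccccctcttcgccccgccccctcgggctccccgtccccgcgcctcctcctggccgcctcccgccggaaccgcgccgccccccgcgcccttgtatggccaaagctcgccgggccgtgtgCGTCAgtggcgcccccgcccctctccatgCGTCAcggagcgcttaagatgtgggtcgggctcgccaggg

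All 7 members with an entry in the table held at least 1 CRE half-site before a start, against 17.77% of the 32851 promoters of the table. Fos, Egr4 and Npas4 each held 2, at 129 and 66 bases before the start in Fos, at 177 and 109 in Egr4, and at 179 and 169 in Npas4. Nr4a1 held 4, of which the nearest began 40 bases before the start, while Fosb and Junb held 1 each. Egr2 had 5 listed starts, and 3 of them had 2 half-sites each, with none before the remaining starts. None of the 7 held the full palindrome TGACGTCA, which 1.55% of promoters hold and in which the half-site lies. A CArG box, the core of the serum response element, was found in 1 of the 7, Egr2, before 4 of its 5 starts, against 1.47% of promoters. The AP-1 site TGANTCA (6.75% of promoters) and the EGR site GCGTGGGCG (0.54%) were in none of these windows. The core of the antioxidant response element, TGACNNNGC, was in Egr2 and Egr4, against 10.16% of promoters, and in both it overlaps a half-site. These are matches of letters within 250 bases on either strand, not measured binding sites, and their part in the member levels was not tested.

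The strongest pattern was regional: the means of the immediate early genes were lowest in brainstem and highest in cortex, except that Fos was lowest in hippocampus in KO mice. In brainstem, all 10 had a lower mean than in cortex in each genotype. In KO mice 9 of the 10 were called lower, by 2.01-fold for Ier2 to 17.0-fold for Egr2, against 16.7% of all tested genes called lower in that comparison. The same count, 9 of 10, was called below cortex in WT mice, by 2.41-fold to 31.2-fold, against 16.6% of all genes. A call is a limma adjusted p under 0.05 over all tested genes. The median difference of the 10 genes was -2.37 in KO and -2.66 in WT mice, beside 0.022 and 0.029 over all genes. The member without a call was Fos, the classic marker of neuronal activation. In the same arrays the 9 pan-neuronal and transmitter markers had a median brainstem minus cortex difference of 0.21 in KO and 0.19 in WT mice. Of the 9, 3 were called lower and 3 higher in KO, and 3 lower and 2 higher in WT (18.9% and 19.1% of all genes were called higher). Other cell type lists differed between these regions as well. All 9 oligodendrocyte and myelin markers were called higher in brainstem in both genotypes (median 1.18 in KO and 1.14 in WT mice), and all 9 microglial markers had lower means there, 5 of them called (median -0.56 in KO and -0.52 in WT mice). The part of either list in the member values was not tested.

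Brainstem was also called below hippocampus for 8 of 10 members in KO mice (18.9% of all genes called lower) and 8 of 10 in WT mice (18.5%). Its mean was the lower one for 9 members in KO and 10 in WT mice. The members without a call were Fos and Ier2 in both genotypes. Median differences were -1.38 in KO mice and -1.79 in WT mice. On slide 2, which held brainstem array 3 and hippocampus array 1 of each genotype, the median was -0.47 in KO and -1.71 in WT mice. There Fos was higher in brainstem, by 2.15 in KO and 0.96 in WT mice. Fosb (0.024) was also higher in KO mice, and the other differences were below 0. Within that slide, region and array number cannot be told apart. Cortex and hippocampus differed less: 3 of 10 members were called lower in hippocampus in KO mice (Egr1, Egr2 and Nr4a1, against 9.43% of genes), and 4 in WT mice (Egr1, Npas4, Nr4a1 and Ier2, against 10.4%). All 10 had a lower mean in hippocampus than in cortex in each genotype, with medians of -0.96 in KO and -0.99 in WT. These hippocampal counts rested on single arrays. Without cortex KO array 1, 2 or 3 the KO count was 7, 1 and 1, and without hippocampus KO array 1, 2 or 3 it was 0, 6 and 2. The WT count was 1, 0 and 0 without cortex WT array 1, 2 or 3, and 0, 1 and 2 without hippocampus WT array 1, 2 or 3. Shares of all genes were not set beside these leave-out counts. Counted by arrays without overlap, brainstem lay below cortex for 9 members in KO and 10 in WT mice (18.1% and 23.7% of all genes). Brainstem lay below hippocampus without overlap for 7 and 8 (22.7% and 26.7%). Hippocampus lay below cortex without overlap for 4 and 8 (16.4% and 22.6%).

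**Figure D1:**
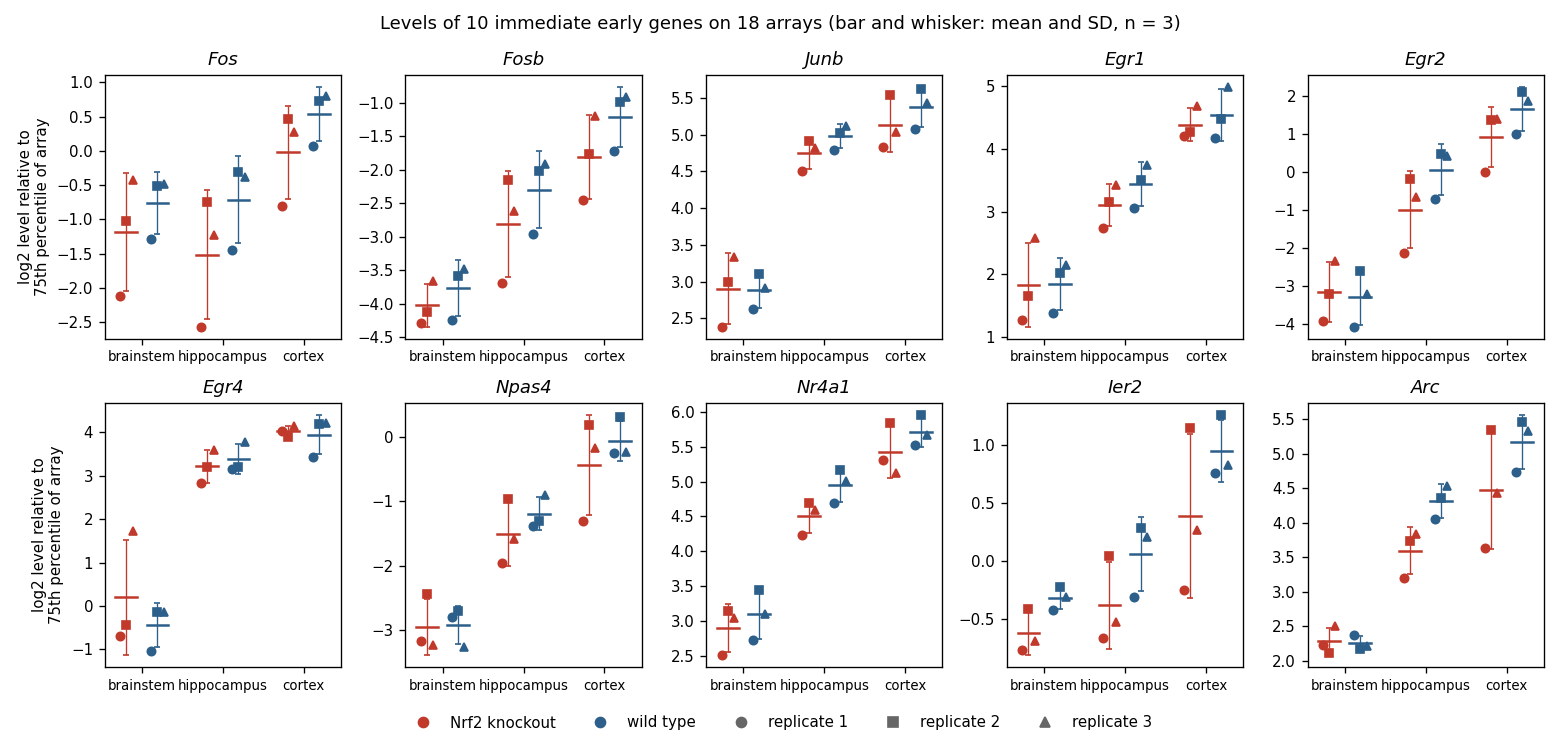
Log2 level of each gene relative to the 75th percentile of the array (y axis, own scale per panel) on the 3 arrays of each group, with KO left of WT in brainstem, hippocampus and cortex. Horizontal bars are means and whiskers SD (n = 3), and the marker shape gives the replicate number. Mean levels are lowest in brainstem for all genes but Fos in KO mice, and the circles of replicate 1 are often the lowest of their group.

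No member was called between KO and WT mice in any region. Over all genes 7 of 22672 were called in brainstem (0.0309%), 4 in hippocampus (0.0176%), 7 in cortex (0.0309%) and 12 in the mean of the regions (0.0529%), Nfe2l2 among them. At an unadjusted p under 0.05 from the limma model, none of the members passed in brainstem. Arc passed in hippocampus and in cortex, and Ier2, Arc and Nr4a1 passed in the mean of the regions. No tool other than limma was run. At that level 2.96% of all genes passed in brainstem, 1.33% in hippocampus, 2.19% in cortex and 6.94% in the mean of the regions.

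The means nevertheless lay to one side in the forebrain regions. KO was below WT for 10 of 10 members in hippocampus (median -0.44, from -1.05 for Egr2 to -0.17 for Egr4), where 43.1% of all genes lay below 0. In cortex it was below WT for 9 of 10 (median -0.47, from -0.74 for Egr2 to 0.081 for Egr4), against 49.7% of all genes. In brainstem it was below WT for 6 of 10 (median -0.022, from -0.43 for Fos to 0.64 for Egr4), against 49.3% of all genes. These counts are over genes that move together on the same arrays and are not 10 separate observations. The medians shrank to -0.21 in hippocampus without KO array 1, and in cortex to -0.20 without KO array 1 and -0.30 without WT array 2. Within slides, the median was -0.23 for brainstem on slide 1 and 0.18 on slide 2, -0.51 for hippocampus on slide 2 and -0.43 on slide 3, and -0.57 for cortex on slide 4 and -0.44 on slide 5.

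The size of the KO effect did not pass the test of a difference between regions for any member (0 of 10, and 0% of all genes, for each of the 3 pairs of regions). In the fit of group means alone, the smallest unadjusted limma p was 0.125, for Arc in brainstem minus hippocampus. KO minus WT was higher in brainstem than in hippocampus for all 10 members (median of the difference 0.30) and likewise than in cortex (median 0.30), against 46.4% and 49.8% of all genes, and these 2 contrasts share the brainstem arrays. Without brainstem KO array 3 it was higher for 8 members against hippocampus (median 0.13) and 7 against cortex (median 0.11). On that array striatal and choroid plexus markers were also the highest of the brainstem arrays. Arrays of the same number were also set side by side, since KO and WT samples of a number deviated together. KO was below WT in 75 of the 90 pairs of a gene and number. The genes move together on the same arrays, so these are not 90 separate observations. The share of such pairs over all genes was not counted. Fosb, Nr4a1 and Ier2 were below in all 9 pairs, which 0.946% of all genes were. Arc, Fos and Junb were below in 8 of 9. With Fosb, Nr4a1 and Ier2, that makes 6 of 10 members with at least 8 pairs, against 4.97% of all genes. In a limma fit with the number as a block within a region, the standard errors of the members were smaller (0.174 in place of 0.327 for Arc in each region). An unadjusted p under 0.05 was then reached by 0 of 10 members in brainstem (6.64% of all genes), 7 in hippocampus (3.64%), 6 in cortex (5.07%) and 6 in the mean of the regions (13.3%), with KO lower in each case. For the difference of the KO effect between regions, that fit gave Egr2 and Arc an unadjusted limma p under 0.05. It was 0.00959 for Egr2 and 0.0147 for Arc in brainstem minus hippocampus, and 0.0376 and 0.0167 in brainstem minus cortex. The share of all genes at that level was not counted for these differences. No member was called after adjustment over all genes in that fit either.

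**Figure D2:**
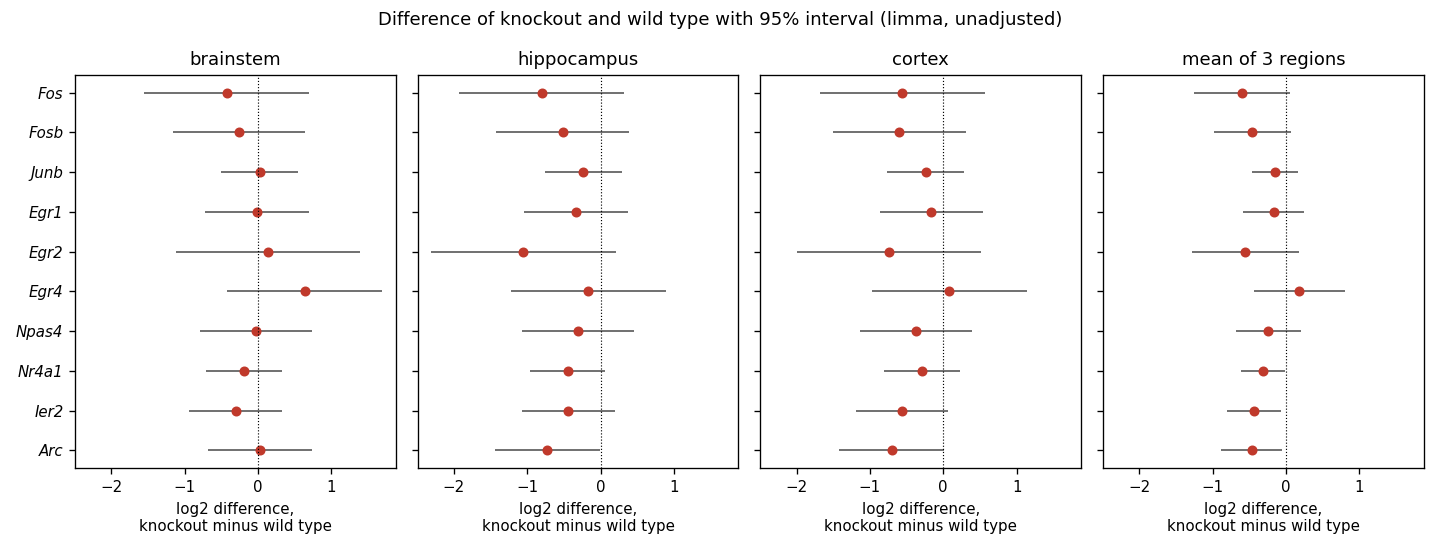
Log2 difference of KO minus WT for each gene (points) with the 95% interval of limma, not adjusted for multiple tests (lines), in brainstem, hippocampus, cortex and the mean of the regions. Points lie left of 0 for all genes in hippocampus and for all but Egr4 in cortex, and the Arc interval in cortex ends at -0.0051.

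Fos, Fosb and Junb encode subunits of AP-1, a dimer of a FOS and a JUN protein that binds DNA. In brainstem, Fos stood at -2.12, -1.03 and -0.42 on the KO arrays numbered 1, 2 and 3, against -1.28, -0.51 and -0.49 on the WT arrays. Hippocampal Fos levels were -2.57, -0.74 and -1.23 in KO mice and -1.45, -0.3 and -0.38 in WT mice. The cortical Fos levels were -0.8, 0.46 and 0.27 in KO mice and 0.076, 0.73 and 0.8 in WT mice. The KO and WT arrays overlapped in every region, and array 1 was the lowest of its group 6 times. The cortical arrays did not separate from brainstem in KO mice and did so in WT mice. Brainstem Fos was 2.24-fold below cortex in KO mice (log2 difference -1.17 ± 0.520 SE, limma adjusted p = 0.0978) and 2.46-fold below cortex in WT mice (-1.3 ± 0.520 SE, adjusted p = 0.0661). Neither passed the test. The Fos level of brainstem minus that of hippocampus was 0.33 in KO mice (adjusted p = 0.646) and -0.048 in WT mice (adjusted p = 0.950). For Fos, hippocampus minus cortex came to -1.49 in KO mice (adjusted p = 0.0654) and to -1.25 in WT mice (adjusted p = 0.121). None of these 4 was called either, although the hippocampal WT arrays all lay below the cortical ones. The KO difference between hippocampus and cortex was called with median scaling (adjusted p = 0.0486) and with normexp background correction (adjusted p = 0.0479). Of Fos, the KO minus WT difference was -0.43 in brainstem, -0.8 in hippocampus and -0.56 in cortex (SE 0.520 in each). In KO mice the brainstem call was reached (adjusted p = 0.0455) without cortex KO array 1 and without brainstem KO array 3 (adjusted p = 0.0409), and the brainstem minus hippocampus difference turned to -0.20 without hippocampus KO array 1.

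Fosb, which shares its dimer partners with Fos, gave a clearer regional order. In brainstem, Fosb stood at -4.28, -4.12 and -3.66 on the KO arrays numbered 1, 2 and 3, against -4.24, -3.58 and -3.48 on the WT arrays. Hippocampal Fosb levels were -3.69, -2.15 and -2.61 in KO mice and -2.96, -2.02 and -1.92 in WT mice. The cortical Fosb levels were -2.46, -1.77 and -1.21 in KO mice and -1.73, -0.99 and -0.92 in WT mice. Brainstem lay below cortex without overlap in both genotypes. Brainstem Fosb was 4.63-fold below cortex in KO mice (log2 difference -2.21 ± 0.416 SE, limma adjusted p = 7.30e-04) and 5.87-fold below cortex in WT mice (-2.55 ± 0.416 SE, adjusted p = 2.13e-04). The Fosb level of brainstem minus that of hippocampus was -1.21 in KO mice (adjusted p = 0.0313) and -1.47 in WT mice (adjusted p = 0.0107). The KO call against hippocampus was lost (adjusted p = 0.0888 to 0.144) without hippocampus KO array 2 or 3, and at adjusted p = 0.0962 and 0.0771 without brainstem KO array 1 or 2. Without brainstem WT array 1 the WT call was lost as well (adjusted p = 0.0530). For Fosb, hippocampus minus cortex came to -1.0 in KO mice (adjusted p = 0.121) and to -1.09 in WT mice (adjusted p = 0.0912). Of Fosb, the KO minus WT difference was -0.26 in brainstem, -0.52 in hippocampus and -0.6 in cortex (SE 0.416 in each). Its KO level was the lower one in all 9 same-number pairs although the groups overlapped in each region.

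Junb encodes a JUN-type partner that often restrains the activity of c-Jun. In brainstem, Junb stood at 2.38, 2.99 and 3.34 on the KO arrays numbered 1, 2 and 3, against 2.63, 3.1 and 2.91 on the WT arrays. Hippocampal Junb levels were 4.5, 4.92 and 4.81 in KO mice and 4.8, 5.03 and 5.12 in WT mice. The cortical Junb levels were 4.83, 5.54 and 5.04 in KO mice and 5.08, 5.62 and 5.44 in WT mice. Brainstem was lower than both other regions on every array, and the 2 forebrain regions overlapped. Brainstem Junb was 4.70-fold below cortex in KO mice (log2 difference -2.23 ± 0.239 SE, limma adjusted p = 4.13e-06) and 5.65-fold below cortex in WT mice (-2.5 ± 0.239 SE, adjusted p = 1.33e-06). The Junb level of brainstem minus that of hippocampus was -1.84 in KO mice (adjusted p = 2.14e-05) and -2.1 in WT mice (adjusted p = 5.76e-06). For Junb, hippocampus minus cortex came to -0.39 in KO mice (adjusted p = 0.307) and to -0.4 in WT mice (adjusted p = 0.298). Of Junb, the KO minus WT difference was 0.024 in brainstem, -0.24 in hippocampus and -0.24 in cortex (SE 0.239 in each). Its other probe gave the same picture, with deviations from the group means that correlated with those of the brighter probe (r = 0.92 over 18 arrays of the same RNA). That probe differed by -2.38 in KO and -2.63 in WT mice between brainstem and cortex, and by 0.063, -0.18 and -0.18 between KO and WT in brainstem, hippocampus and cortex.

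Egr1, Egr2 and Egr4 encode zinc finger factors that bind GC-rich sites, and Egr1, also known as Zif268, is widely used as a marker of plasticity. In brainstem, Egr1 stood at 1.27, 1.66 and 2.58 on the KO arrays numbered 1, 2 and 3, against 1.38, 2.03 and 2.15 on the WT arrays. Hippocampal Egr1 levels were 2.74, 3.16 and 3.42 in KO mice and 3.06, 3.5 and 3.75 in WT mice. The cortical Egr1 levels were 4.2, 4.27 and 4.68 in KO mice and 4.17, 4.47 and 4.99 in WT mice. No brainstem array reached a hippocampal one, and no hippocampal array reached a cortical one, in either genotype. Brainstem Egr1 was 5.84-fold below cortex in KO mice (log2 difference -2.55 ± 0.324 SE, limma adjusted p = 2.28e-05) and 6.45-fold below cortex in WT mice (-2.69 ± 0.324 SE, adjusted p = 1.33e-05). The Egr1 level of brainstem minus that of hippocampus was -1.27 in KO mice (adjusted p = 0.00583) and -1.58 in WT mice (adjusted p = 0.00116). For Egr1, hippocampus minus cortex came to -1.28 in KO mice (adjusted p = 0.0141) and to -1.11 in WT mice (adjusted p = 0.0295). Egr1 shared this separation of all 3 regions in both genotypes with Egr2 and Nr4a1, and the share of all genes with it was not counted. The hippocampal calls were lost without cortex KO array 3 (adjusted p = 0.0523) or hippocampus KO array 1 (0.0702) in KO mice, and in WT mice without cortex WT array 2 (0.0644) or 3 (0.117) or hippocampus WT array 1 (0.129) or 2 (0.0690). Of Egr1, the KO minus WT difference was -0.017 in brainstem, -0.33 in hippocampus and -0.16 in cortex (SE 0.324 in each).

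Egr2, a factor of activated neurons and of myelinating Schwann cells, had the largest difference between brainstem and cortex of the 10 genes. In brainstem, Egr2 stood at -3.92, -3.22 and -2.36 on the KO arrays numbered 1, 2 and 3, against -4.08, -2.62 and -3.22 on the WT arrays. Hippocampal Egr2 levels were -2.12, -0.2 and -0.66 in KO mice and -0.71, 0.46 and 0.42 in WT mice. The cortical Egr2 levels were -9.1e-04, 1.36 and 1.4 in KO mice and 1.01, 2.1 and 1.88 in WT mice. All brainstem arrays lay below all hippocampal ones, and array 1 was the lowest in each of the 6 groups. Brainstem Egr2 was 17.0-fold below cortex in KO mice (log2 difference -4.09 ± 0.580 SE, limma adjusted p = 6.44e-05) and 31.2-fold below cortex in WT mice (-4.96 ± 0.580 SE, adjusted p = 9.77e-06). The Egr2 level of brainstem minus that of hippocampus was -2.17 in KO mice (adjusted p = 0.00769) and -3.36 in WT mice (adjusted p = 2.83e-04). For Egr2, hippocampus minus cortex came to -1.91 in KO mice (adjusted p = 0.0357) and to -1.6 in WT mice (adjusted p = 0.0746). The KO call against cortex was lost without cortex KO array 2 (adjusted p = 0.119) or 3 (0.106) and without hippocampus KO array 1 (0.172) or 3 (0.0592). Of Egr2, the KO minus WT difference was 0.14 in brainstem, -1.05 in hippocampus and -0.74 in cortex (SE 0.580 in each). The KO arrays numbered 1 were 1.41 below their WT counterpart in hippocampus and 1.01 below it in cortex.

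Egr4, which is transcribed mainly in the nervous system, was the one member with a KO mean above WT in cortex, and of 4 such members in brainstem it had the largest difference. In brainstem, Egr4 stood at -0.7, -0.44 and 1.72 on the KO arrays numbered 1, 2 and 3, against -1.04, -0.14 and -0.15 on the WT arrays. Hippocampal Egr4 levels were 2.83, 3.21 and 3.6 in KO mice and 3.16, 3.2 and 3.78 in WT mice. The cortical Egr4 levels were 4.03, 3.9 and 4.15 in KO mice and 3.43, 4.2 and 4.22 in WT mice. Brainstem KO array 3 stood 1.53 above the mean of its group, and the other 17 arrays deviated by at most 0.89. Without that array, KO minus WT in brainstem was -0.13 in place of 0.64. The same array had the highest levels of 9 striatal markers among the brainstem arrays (mean 0.53, against -0.63 to -0.24 on the other KO arrays and -0.75 to -0.51 on the WT arrays) and of 8 choroid plexus markers (0.68, against -2.33 to -2.08 on the other KO arrays and -2.37 to -0.49 on the WT arrays). No striatal or choroid plexus marker was at background throughout a group, and their part in the Egr4 level was not tested. Brainstem Egr4 was 14.3-fold below cortex in KO mice (log2 difference -3.83 ± 0.488 SE, limma adjusted p = 2.25e-05) and 21.0-fold below cortex in WT mice (-4.39 ± 0.488 SE, adjusted p = 5.95e-06). The Egr4 level of brainstem minus that of hippocampus was -3.02 in KO mice (adjusted p = 1.67e-04) and -3.82 in WT mice (adjusted p = 1.76e-05). For Egr4, hippocampus minus cortex came to -0.82 in KO mice (adjusted p = 0.296) and to -0.57 in WT mice (adjusted p = 0.487). Of Egr4, the KO minus WT difference was 0.64 in brainstem, -0.17 in hippocampus and 0.081 in cortex (SE 0.488 in each).

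Npas4 encodes a bHLH-PAS factor that is induced by calcium entry in neurons and hardly by growth factors. In brainstem, Npas4 stood at -3.16, -2.44 and -3.23 on the KO arrays numbered 1, 2 and 3, against -2.8, -2.69 and -3.26 on the WT arrays. Hippocampal Npas4 levels were -1.95, -0.97 and -1.59 in KO mice and -1.38, -1.3 and -0.9 in WT mice. The cortical Npas4 levels were -1.3, 0.18 and -0.18 in KO mice and -0.25, 0.3 and -0.23 in WT mice. Brainstem was lowest without overlap in both genotypes. Brainstem Npas4 was 5.69-fold below cortex in KO mice (log2 difference -2.51 ± 0.351 SE, limma adjusted p = 5.63e-05) and 7.23-fold below cortex in WT mice (-2.85 ± 0.351 SE, adjusted p = 1.60e-05). The Npas4 level of brainstem minus that of hippocampus was -1.44 in KO mice (adjusted p = 0.00430) and -1.72 in WT mice (adjusted p = 0.00110). For Npas4, hippocampus minus cortex came to -1.07 in KO mice (adjusted p = 0.0509) and to -1.13 in WT mice (adjusted p = 0.0390). The WT call between hippocampus and cortex was lost on leaving out any 1 of the 3 cortical WT arrays or hippocampus WT array 1 or 2 (adjusted p = 0.0678, 0.143, 0.0628, 0.128 and 0.112). The KO difference was called without cortex KO array 1 (adjusted p = 0.00523) or hippocampus KO array 2 (0.0269). Of Npas4, the KO minus WT difference was -0.027 in brainstem, -0.31 in hippocampus and -0.37 in cortex (SE 0.351 in each). Without cortex KO array 1, which lay lowest, the cortical difference was 0.059.

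Nr4a1, also called Nur77, encodes an orphan nuclear receptor induced by many stimuli, in neurons as in lymphocytes. In brainstem, Nr4a1 stood at 2.51, 3.14 and 3.05 on the KO arrays numbered 1, 2 and 3, against 2.73, 3.45 and 3.1 on the WT arrays. Hippocampal Nr4a1 levels were 4.24, 4.69 and 4.59 in KO mice and 4.69, 5.17 and 5.0 in WT mice. The cortical Nr4a1 levels were 5.32, 5.85 and 5.12 in KO mice and 5.53, 5.96 and 5.67 in WT mice. The 3 regions were separated without overlap in each genotype. Brainstem Nr4a1 was 5.78-fold below cortex in KO mice (log2 difference -2.53 ± 0.234 SE, limma adjusted p = 1.02e-06) and 6.19-fold below cortex in WT mice (-2.63 ± 0.234 SE, adjusted p = 6.59e-07). The Nr4a1 level of brainstem minus that of hippocampus was -1.61 in KO mice (adjusted p = 6.60e-05) and -1.86 in WT mice (adjusted p = 1.52e-05). For Nr4a1, hippocampus minus cortex came to -0.92 in KO mice (adjusted p = 0.0138) and to -0.77 in WT mice (adjusted p = 0.0362). The hippocampal calls did not hold in KO mice without cortex KO array 2 (adjusted p = 0.0700) or hippocampus KO array 1 (0.0699). In WT mice they did not hold without cortex WT array 1, 2 or 3 (0.0528, 0.137 and 0.0712) or hippocampus WT array 1 or 3 (0.151 and 0.0675). Of Nr4a1, the KO minus WT difference was -0.19 in brainstem, -0.45 in hippocampus and -0.29 in cortex (SE 0.234 in each). In the mean of the regions, Nr4a1 was 1.24-fold lower in KO mice (-0.31 ± 0.135 SE, limma adjusted p = 0.715).

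Ier2 encodes a small nuclear protein induced by growth factors and depolarisation. In brainstem, Ier2 stood at -0.77, -0.41 and -0.69 on the KO arrays numbered 1, 2 and 3, against -0.42, -0.22 and -0.31 on the WT arrays. Hippocampal Ier2 levels were -0.66, 0.044 and -0.53 in KO mice and -0.31, 0.28 and 0.2 in WT mice. The cortical Ier2 levels were -0.25, 1.15 and 0.27 in KO mice and 0.76, 1.26 and 0.83 in WT mice. Brainstem and hippocampus overlapped in both genotypes, and every cortical WT array lay above both, while cortex and hippocampus overlapped in KO mice. Brainstem Ier2 was 2.01-fold below cortex in KO mice (log2 difference -1.01 ± 0.289 SE, limma adjusted p = 0.0132) and 2.41-fold below cortex in WT mice (-1.27 ± 0.289 SE, adjusted p = 0.00304). The KO call was lost without cortex KO array 2 (adjusted p = 0.0624). The Ier2 level of brainstem minus that of hippocampus was -0.24 in KO mice (adjusted p = 0.538) and -0.38 in WT mice (adjusted p = 0.318). For Ier2, hippocampus minus cortex came to -0.77 in KO mice (adjusted p = 0.0873) and to -0.89 in WT mice (adjusted p = 0.0474). The hippocampal WT call was lost without any 1 of the 6 arrays compared (adjusted p = 0.0673 to 0.191), and the KO difference was called without cortex KO array 1 (0.0160) or hippocampus KO array 2 (0.0484). Of Ier2, the KO minus WT difference was -0.3 in brainstem, -0.44 in hippocampus and -0.56 in cortex (SE 0.289 in each). The mean over the regions was -0.44 ± 0.167 SE (1.35-fold lower in KO, limma adjusted p = 0.709).

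Arc encodes a cytoskeleton-associated protein that removes AMPA receptors from synapses, and its mRNA travels to active dendrites. In brainstem, Arc stood at 2.22, 2.12 and 2.5 on the KO arrays numbered 1, 2 and 3, against 2.38, 2.17 and 2.21 on the WT arrays. Hippocampal Arc levels were 3.2, 3.74 and 3.84 in KO mice and 4.05, 4.36 and 4.54 in WT mice. The cortical Arc levels were 3.64, 5.34 and 4.43 in KO mice and 4.73, 5.46 and 5.32 in WT mice. In hippocampus every KO array lay below every WT array. Arc was the only member without overlap there, and 2.7% of all genes were lower without overlap in that comparison. KO and WT arrays overlapped in cortex and in brainstem. Of Arc, the KO minus WT difference was 0.027 in brainstem, -0.72 in hippocampus and -0.7 in cortex (SE 0.327 in each). The hippocampal value is 1.65-fold lower in KO mice (95% interval -1.42 to -0.025, limma adjusted p = 1.0) and the cortical one 1.63-fold lower (-1.4 to -0.0051, adjusted p = 1.0). Brainstem Arc was 4.56-fold below cortex in KO mice (log2 difference -2.19 ± 0.327 SE, limma adjusted p = 1.01e-04) and 7.58-fold below cortex in WT mice (-2.92 ± 0.327 SE, adjusted p = 6.32e-06). The Arc level of brainstem minus that of hippocampus was -1.31 in KO mice (adjusted p = 0.00494) and -2.06 in WT mice (adjusted p = 1.35e-04). For Arc, hippocampus minus cortex came to -0.88 in KO mice (adjusted p = 0.0844) and to -0.86 in WT mice (adjusted p = 0.0895). The KO hippocampal difference was called without cortex KO array 1 (adjusted p = 0.00695).

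Beside the lower KO means in the forebrain, 2 marker lists of tissue next to the regions also had lower KO means. All 8 choroid plexus markers measured were lower in KO hippocampus (median -1.17) and in KO cortex (median -0.74). Their mean level ranged from -2.14 to 1.55 in KO and from -2.24 to 2.07 in WT hippocampus, and from -2.81 to 0.43 in KO and from -0.85 to 0.16 in WT cortex. All 9 striatal markers were lower in KO cortex (median -0.33, levels of 0.51 to 0.66 in KO and 0.88 to 1.10 in WT). In brainstem, 7 of the 8 choroid plexus markers (median 0.43) and 8 of the 9 striatal markers (median 0.44) had higher KO means. All 4 erythrocyte markers had higher KO means in every region (median 0.19 in brainstem, 0.52 in hippocampus and 0.41 in cortex), and their mean level ranged from 0.88 to 1.14 in KO and from 0.20 to 0.79 in WT hippocampus and from 1.26 to 1.57 in KO and from 0.61 to 1.33 in WT cortex. Of 6 heat shock genes, taken as a sign of handling, 5 had lower KO means in each region (median -0.23 in brainstem, -0.079 in hippocampus and -0.044 in cortex). In KO hippocampus, 7 of 8 hippocampal markers (median -0.26) and 8 of 9 oligodendrocyte and myelin markers (median -0.16) had lower means. In KO cortex, all 9 endothelial and mural markers (median 0.17) and all 6 meningeal markers (median 0.29) had higher means. Neuronal markers had lower KO means for 6 of 9 in brainstem (median -0.063), 4 of 9 in hippocampus (0.0037) and 7 of 9 in cortex (-0.082). Their mean level ranged from 2.87, on array 1, to 3.13 in KO cortex and from 3.03 to 3.17 in WT cortex. Higher KO means were seen for 6 of 7 astrocyte markers in hippocampus (median 0.17) and in cortex (0.053). The same held for 7 of 9 microglial markers in hippocampus (0.0097) and in cortex (0.091). None of these markers was called, and their part in the member values was not tested.

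The KO minus WT difference was larger than the SD within groups for 0 of 10 members in brainstem, 5 in hippocampus (Arc, Fos, Egr2, Nr4a1 and Ier2) and 3 in cortex (Arc, Fosb and Ier2). These counts are a description only, since the share of all tested genes with a difference above their SD within groups was not counted. This SD ran from 0.30 for Nr4a1 to 0.77 for Egr2, with a median over all genes of 0.22. Of all tested genes, 69.7% had a smaller SD than Nr4a1 and 96.9% a smaller SD than Egr2. Noise between spots was far smaller. The 9 or 10 usable spots of the Fos probe had a median SD of 0.067 within an array, against an SD of 0.69 between arrays of a group, and those of Egr2 one of 0.077 against 0.77.

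The low values fell on the same array number in all groups. Averaged over the members, array 1 was the lowest of its group in 6 of 6 groups, with deviations from the group mean of -0.47 and -0.33 in KO and WT brainstem, -0.54 and -0.40 in hippocampus, and -0.53 and -0.38 in cortex. Over the groups the mean deviation was -0.44 for number 1, 0.23 for number 2 and 0.21 for number 3. Fos, Fosb, Junb, Egr1, Egr2 and Ier2 had their lowest value on array 1 in all 6 groups, which 0.544% of all genes had. Number 2 was the lowest in all 6 groups for 1.16% of genes and number 3 for 9.03%. Egr4 and Nr4a1 were lowest on number 1 in 5 groups, and Arc and Npas4 in 4. In brainstem and in cortex the arrays numbered 1 and 2 shared a slide, so the low number 1 is seen there within a slide. In hippocampus number 1 was on slide 2 and the others on slide 3, and there the number and the slide cannot be told apart. The labels do not say whether a number is 1 mouse in all regions or a shared day.

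**Figure D3:**
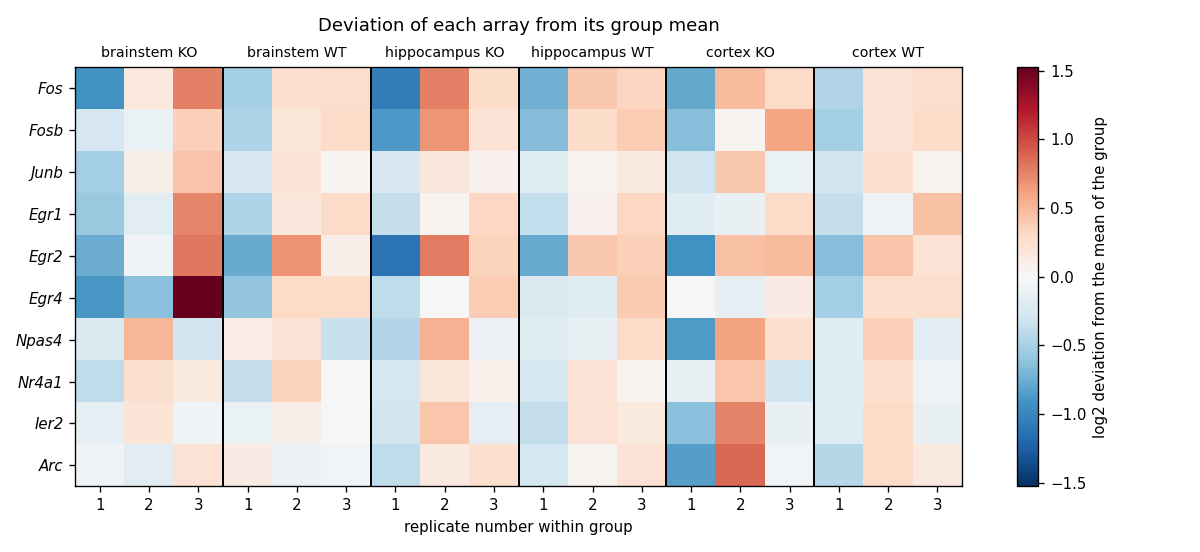
Deviation of each array from the mean of its group (colour, log2), for each gene (rows) and array (columns, replicate numbers 1 to 3 within KO and WT of each region). The blue columns are array 1 of every group, and the darkest red cell is Egr4 on brainstem KO array 3.

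The members deviated together. Over the 18 arrays, the correlation of deviations had a median of 0.66 among the 45 pairs of members and exceeded 0.5 in 37. It ranged from -0.068 for Egr4 with Npas4 to 0.96 for Fos with Egr2, while Egr1 with Npas4 gave 0.067 and Egr4 with Ier2 0.059. Egr4 and Egr1 were thus the least alike to Npas4 and Ier2. The points share RNA sample, labelling and array, so the values are a description. Without the arrays numbered 1 the median over the 12 remaining was 0.32 and 18 pairs exceeded 0.5.

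**Figure D4:**
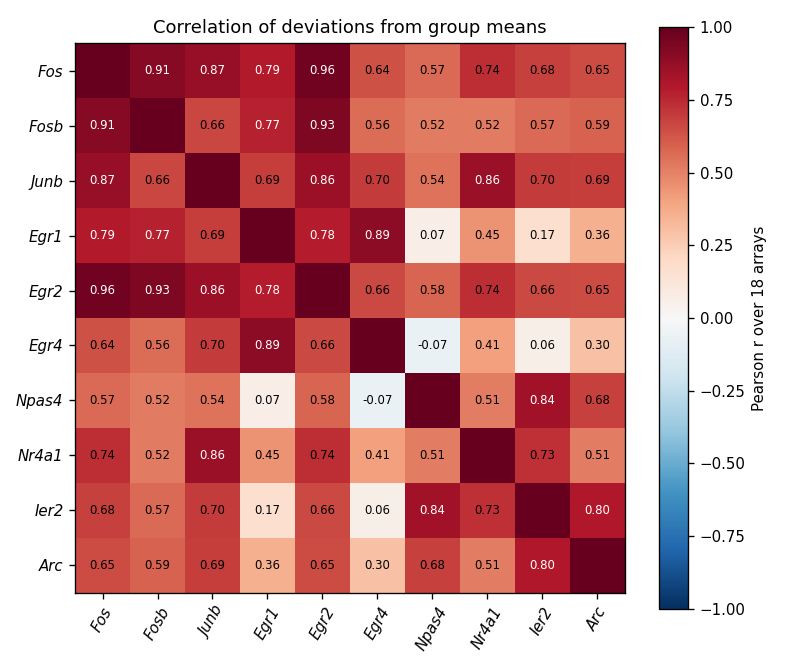
Pearson correlation, over 18 arrays, of the deviations from group means for each pair of members (colour and number in each cell). Fos, Fosb and Egr2 form the most alike block, up to 0.96, and the cells of Egr4 and Egr1 with Npas4 and Ier2 are the palest.

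Outside the members, 33 of 35 other immediate early signalling and effector genes were measured, and none was called between KO and WT in any region or in their mean. Their KO minus WT median was -0.014 in brainstem, -0.16 in hippocampus and -0.13 in cortex, with 18, 24 and 21 of 33 below 0. The 3 with the largest mean difference were Ccn1, a matricellular protein (-0.66), Btg2, an antiproliferative factor (-0.57), and Dusp1, a phosphatase of MAP kinases (-0.46, limma adjusted p = 0.709 for each). Each of the 3 was lowest on array 1 in 6 of 6 groups. The mean deviation of this list over the arrays followed that of the members (r = 0.94 over 18 arrays, sharing the same RNA), with number 1 lowest in 6 of 6 groups. Its number 1 deviation was -0.14.

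Of 22 other immediate early transcription factors, 21 were measured and none was called between KO and WT. The median was 0.015 in brainstem, -0.14 in hippocampus and -0.073 in cortex. The 3 named by size are Atf3, a stress-responsive factor (-0.43 in the mean of the regions), Klf2, a zinc finger factor of endothelium and lymphocytes (0.29), and Csrnp1 (-0.28, limma adjusted p between 0.55 and 0.753). The list was lowest on array 1 in 5 of 6 groups (r = 0.74 with the members). In brainstem, 18 of 21 had a lower mean than in cortex in each genotype, with medians of -0.40 in KO and -0.56 in WT mice. In each genotype 10 of 21 were called lower and 1 higher, against 16.7% of all genes called lower in KO and 16.6% in WT mice. Called lower in the same comparison were 16 of 33 signalling and effector genes in KO and 19 in WT mice, 12 of 19 delayed genes in each genotype, and 15 of 28 upstream kinases and factors in KO and 13 in WT mice. Called higher were 5 delayed genes in KO and 4 in WT mice, against 18.9% and 19.1% of all genes. Of the signalling and effector genes 2 were called higher in each genotype, and of the upstream kinases and factors also 2.

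Delayed activity-regulated genes, which follow the immediate early wave, had 19 of 22 measured and none called between KO and WT. Medians were 0.015 in brainstem, -0.043 in hippocampus and -0.037 in cortex. Inhba, a subunit of activin, differed by -0.25 in the mean of the regions, Scg2, a granin of secretory vesicles, by -0.20, and the membrane protein gene Lingo3 by -0.16. These 3 did not follow the members from array to array (r = 0.0046, -0.018 and -0.029), and the list as a whole gave r = 0.50. Among upstream kinases and factors, 28 of 30 were measured, none was called, and medians were 0.023 in brainstem, -0.033 in hippocampus and -0.0022 in cortex. Camk2a, a calcium-dependent kinase, had a KO minus WT difference of 0.72 in brainstem, -0.17 in hippocampus and 0.22 in cortex. Mef2c, a transcription factor of neurons and muscle, differed by 0.18 in the mean of the regions. The list had number 1 lowest in 1 of 6 groups (r = -0.052). Srf stands in this list and in that of the transcription factors.

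**Figure D5:**
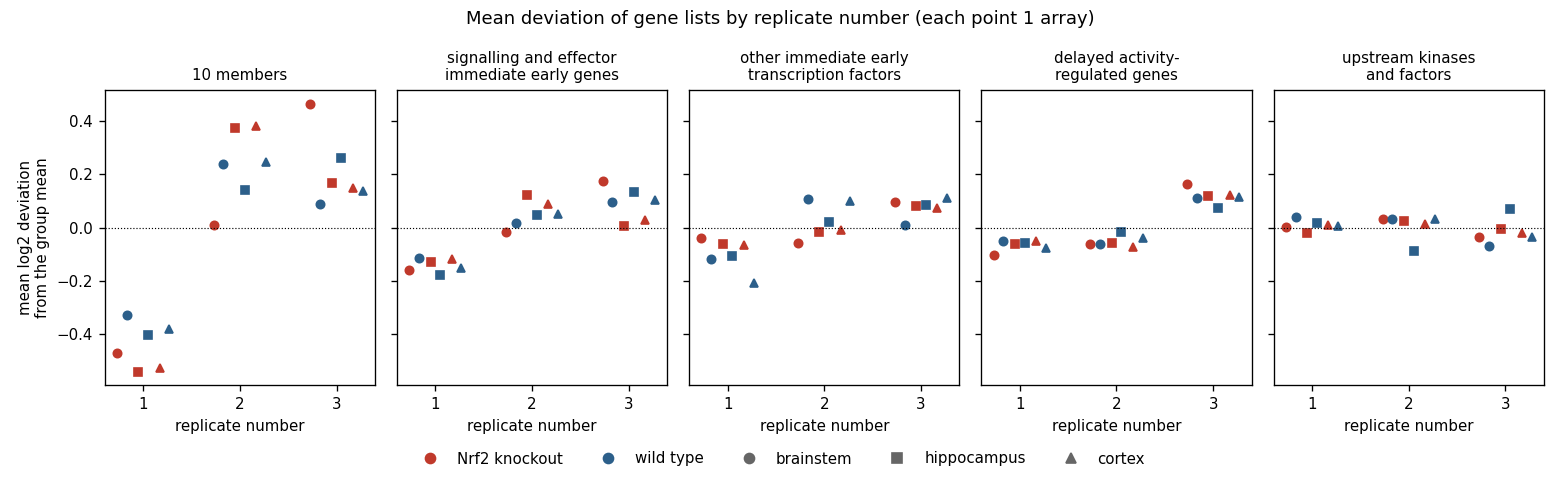
Mean deviation from the group mean (y axis, log2) of the 10 members and of the 4 other lists, by replicate number (x axis). Each point is 1 array, red for KO and blue for WT, with the region given by the marker shape. The members, the signalling and effector genes, the other transcription factors and the delayed genes lie below 0 on all arrays numbered 1. The upstream kinases and factors do not.

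Among 13321 named genes that were well above background on all 18 arrays, the 10 whose deviations were most like the mean of the members over the 18 arrays were Tssk6 (r = 0.91), Gadd45g, Ddah1 and Fank1 (0.91, 0.91 and 0.90), Dusp1, Scg3 and Asb1 (0.90, 0.89 and 0.89), and Mcl1, Arid5a and Arl4d (0.88 each). An r over 0.5 was reached by 6.89% of these genes. Of the 10, 9 were lowest on array 1 in 6 of 6 groups, and Arl4d in 5. This follows from how they were chosen, since the mean of the members was itself lowest on array 1 in 6 of 6 groups. Dusp1 had a KO minus WT mean of -0.46, and the others lay between -0.18 and 0.047.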

How the data were processed

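Brainstem, hippocampus and cortex RNA of KO and WT mice was read on 18 arrays. Per the file headers, the authors' scanner outputs came from Agilent Feature Extraction 10.7.3.1 and hold an intensity per spot after background subtraction and spatial detrending, with no scaling between arrays. The headers name mm9 as the build of the array design. The deposited table also holds intensity values. Of its 18 columns, 11 matched the named array and 7 another, so it was used as an alternative only.

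Control spots and outlier spots were left out, spots of a probe were averaged, and log2 intensity was taken relative to the 75th percentile of the array. A probe was kept if its spots exceeded background in each array of some group (30067 probes, 22672 genes, of which 14826 had a symbol from the RefSeq table), and the brightest probe stood for a gene. Limma 3.58.1 in R 4.3.3 fitted a mean per group over all 18 arrays with 12 residual degrees of freedom, and Benjamini-Hochberg adjustment ran over all genes. Python 3.11.15 and matplotlib 3.10.9 drew the figures. The scripts were tested on simulated data. The number of arrays limits the precision.

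KO and WT arrays of a region with the same number deviated together from their group means over all genes (r between 0.24 and 0.62 for the 9 pairs), so a fit with the number as a block was made. For regions of 1 genotype, 14 of 18 such correlations exceeded 0.1. Other alternatives were quantile normalization, median scaling, normexp background correction on the median signals, other filters and probe rules, slide blocks, and single arrays left out. The members and the other lists were chosen with earlier results of these data known. All 10 members are described. Of each other list the text names every gene called between KO and WT and the 3 with the largest mean difference, and the 10 genes most like the members, except that 1 gene is not reported here.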

Additional observations from a re-analysis of the deposited data

How the results depend on the processing

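No member was called between KO and WT, or differed in its KO effect between regions, under any of the alternatives run. The replicate block within a region changed no call (smallest adjusted p of a member 0.177, for Nr4a1 in the mean of the regions, limma p 0.000446, log2 difference -0.31 with KO lower in 9 of 9 pairs). Medians of KO minus WT ranged, on leaving out single arrays, from -0.266 to 0.0692 in brainstem, -0.617 to -0.212 in hippocampus, -0.65 to -0.202 in cortex and -0.426 to -0.289 in their mean. Without number 1 of every group, chosen after seeing the data, they were 0.0732, -0.43, -0.333 and -0.334.

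The number of members called below cortex in hippocampus moved most. In KO mice (3 called) it was 6 with median scaling, 5 with normexp and 1 with only the 2 groups fitted, and 0 to 7 without single arrays. In WT mice (4 called) it was 2 with quantile normalization, 1 with no filter, 1 with slide as a random block and 2 without number 1 of every group, and 0 to 2 without single arrays. With the replicate block within genotype it was 8 in KO and 7 in WT mice, where 11.4% and 12.9% of all genes were called lower. In the fit without a block these shares were 9.43% and 10.4%. Arrays of the same number correlated above 0.1 between regions in 14 of 18 cases, but the labels do not say whether a number is 1 mouse. For these counts the cause was not tested, and shares of all genes were not set beside the counts of the other settings. The counts for brainstem stayed within 1.5 times under all alternatives run (7 to 8 against hippocampus, 8 to 10 against cortex).

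The deposited table, in which 7 columns hold another array, gave 0 in both genotypes, a hippocampal KO minus WT median of 0.402 and reversed hippocampal values for Fos (0.517), Fosb (0.553), Junb (0.0417), Egr1 (0.421), Egr2 (0.597), Egr4 (0.382) and Npas4 (0.468). With it, Egr4 in cortex was -0.251, Fos in brainstem minus hippocampus -0.62 in KO and 0.332 in WT mice, and hippocampus minus cortex in KO mice 0.028 for Fos and 0.405 for Fosb. Slide as a random block gave 0.378 for Fos in WT brainstem minus hippocampus.

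Other values changed sign as well, and not all of them were small. In brainstem, KO minus WT was -0.00521 (quantile) and -0.0213 (normexp) for Arc, -0.0253 (quantile) for Junb, 0.00521 (median scaling) for Egr1 and 0.0519 (normexp) for Npas4. Without number 1 of every group it was 0.0287 for Egr1 and 0.142 for Npas4 in brainstem and -0.181 for Egr4 in cortex. Leaving out single arrays gave, in brainstem, ranges of -0.811 to 0.0369 for Fos, -0.194 to 0.284 for Junb, -0.387 to 0.265 for Egr1, -0.268 to 0.514 for Egr2, -0.126 to 1.08 for Egr4, -0.278 to 0.115 for Npas4, -0.371 to 0.00397 for Nr4a1 and -0.0824 to 0.109 for Arc. In cortex they were -0.345 to 0.0611 for Egr1, -0.18 to 0.215 for Egr4 and -0.68 to 0.0593 for Npas4. For Egr4 they were -0.362 to 0.0315 in hippocampus and -0.0708 to 0.332 in the mean of the regions. Fos in brainstem minus hippocampus ranged from -0.2 to 0.792 in KO and from -0.416 to 0.213 in WT mice. For these too the cause was not tested. With 3 arrays a group, no difference between KO and WT of the size seen passed the adjustment over all genes, with or without the replicate block, although the block reduced the standard errors (0.0555 in place of 0.135 for Nr4a1 in the mean of the regions).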
